A study of Homo sapiens with 5 samples.

Results

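The regions described are peaks of a control library, the 733 peaks of IgG 2 that shared no base with any NRF2 peak. They were chosen by that overlap alone, out of the 1746 peaks of IgG 2 (42.0%) and of 83512 peaks in all 5 lists. CUT&Tag was done without treatment on SNU638, an established line from a human gastric cancer, with antibodies against BRG1, ACTL6A and NRF2 and with normal rabbit IgG. The BRG1 list held 48793 peaks, the ACTL6A list 23917, the NRF2 list 9045, and the 2 IgG libraries, called IgG 1 and IgG 2 here, 11 and 1746. Of the 1746 IgG 2 peaks, 6 (0.344%) shared a base with an IgG 1 peak. BRG1, ACTL6A and NRF2 had 1 library each, so there was no replicate spread to hold a difference against, and no test was made. BRG1 peaks lay at the start sites of all 5 epithelial marker genes looked up (EPCAM, CDH1, KRT8, KRT18 and KRT19). They also lay at those of 2 of 3 fibroblast genes (COL1A1 and COL1A2) and of 0 of 2 leukocyte genes. Of all 20007 protein-coding genes 14737 held a BRG1 peak, so these few genes cannot check the identity of the line. No member lay at a start site of any of these marker genes.

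In CUT&Tag an antibody tethers the Tn5 transposase, which cuts and tags the DNA around it. Normal IgG has no intended target in the nucleus, so its peaks show where tagged DNA piles up without one. Such peaks are often found in satellite DNA, which is repeated many times and is represented unevenly in genome assemblies. Alpha satellite, the tandem repeat of human centromeres, is built of units that differ from each other, and some of them carry the CENP-B box, the site bound by the centromere protein CENP-B. Repeats of the pentamer GGAAT make up the classical satellites beside centromeres, and shorter tandem units make up minisatellites, many of which lie near chromosome ends. BRG1 is the ATPase of the SWI/SNF remodelling complex, ACTL6A is its actin-related subunit and NRF2 is the transcription factor of the antioxidant response.

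The members were sorted by their reference sequence into 4 classes, defined after the data had been seen. Alpha satellite was called where at least 38% of bases over the peak and 1 kb to each side equalled the base 170 to 172 bp away, and this share exceeded that at nearby distances by at least 8 percentage points. GGAAT repeats had at least 3 pentamers per 100 bp on one strand, and other tandem repeats had at least 60% of bases equal at a fixed distance of 5 to 100 bp. By these rules 288 members (39.3%, Wilson 95% interval 35.8% to 42.9%) were alpha satellite, 13 (1.77%) GGAAT repeat, 83 (11.3%) other tandem repeat and 349 (47.6%, 44.0% to 51.2%) held no tandem repeat. Over all 1746 IgG 2 peaks these shares were 48.1%, 7.04%, 12.6% and 32.3%, in the same order. Alpha satellite made up 54.4% of the 1013 IgG 2 peaks shared with NRF2, so the members held less of it. It took up 2.43% of the known bases of the genome by the same measure.

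Reference sequences of hg38 at the summits of 8 members show what these classes look like. Each is 171 bp centred on the summit, read 5′ to 3′ on the plus strand. The first 3 are alpha satellite members with folds among the 5 highest, at chr12:35536264-35536434, chr17:22977555-22977725 and chr4:51161279-51161449, and capitals mark a CENP-B box.
IgG_peak_365: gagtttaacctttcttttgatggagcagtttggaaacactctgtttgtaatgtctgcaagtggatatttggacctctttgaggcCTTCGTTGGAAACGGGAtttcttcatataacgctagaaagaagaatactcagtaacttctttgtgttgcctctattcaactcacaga
IgG_peak_584: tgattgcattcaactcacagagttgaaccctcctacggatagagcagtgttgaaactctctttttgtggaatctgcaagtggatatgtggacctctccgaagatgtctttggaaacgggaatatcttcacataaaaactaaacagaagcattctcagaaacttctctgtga
IgG_peak_1113: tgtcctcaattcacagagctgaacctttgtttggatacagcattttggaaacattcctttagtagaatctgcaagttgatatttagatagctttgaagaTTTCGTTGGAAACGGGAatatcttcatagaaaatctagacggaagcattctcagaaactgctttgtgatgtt
The first and the third hold 1 CENP-B box each and the second holds none. Summit words of 32 bases from these peaks occurred a median of 1117, 1179 and 649 times in the genome. Next is the member with the highest −log10 q, a GGAAT repeat at chr17:21863171-21863341, with its 11 pentamers in capitals.
IgG_peak_576: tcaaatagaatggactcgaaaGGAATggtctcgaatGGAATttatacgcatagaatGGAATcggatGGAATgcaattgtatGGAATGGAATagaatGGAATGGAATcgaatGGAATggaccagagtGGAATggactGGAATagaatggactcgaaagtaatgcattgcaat
Capitals in the next pair, both other tandem repeats, span the distance at which most bases of the peak were equal. It was 68 bp at chr4:188904872-188905042 and 43 bp at chr5:163060011-163060181, and it can be a multiple of the repeat unit.
IgG_peak_1144: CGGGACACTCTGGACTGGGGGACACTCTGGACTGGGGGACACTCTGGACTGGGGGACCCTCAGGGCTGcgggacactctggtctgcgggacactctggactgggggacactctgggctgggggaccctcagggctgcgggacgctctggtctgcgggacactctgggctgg
IgG_peak_1284: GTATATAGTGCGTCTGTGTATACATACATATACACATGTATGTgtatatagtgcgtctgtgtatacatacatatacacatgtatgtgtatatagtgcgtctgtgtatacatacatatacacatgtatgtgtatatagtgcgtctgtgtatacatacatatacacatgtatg
In these peaks 90.2% and 100% of bases equalled the base at that distance. The last pair, from peaks without a called tandem repeat at chr5:114759275-114759445 and in an intron of SYT2 at chr1:202624970-202625140, is unmarked, and its summit words occurred once in the genome.
IgG_peak_1278: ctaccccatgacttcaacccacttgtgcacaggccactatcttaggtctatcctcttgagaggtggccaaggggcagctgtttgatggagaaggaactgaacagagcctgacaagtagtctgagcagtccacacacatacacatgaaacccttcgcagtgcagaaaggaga
IgG_peak_130: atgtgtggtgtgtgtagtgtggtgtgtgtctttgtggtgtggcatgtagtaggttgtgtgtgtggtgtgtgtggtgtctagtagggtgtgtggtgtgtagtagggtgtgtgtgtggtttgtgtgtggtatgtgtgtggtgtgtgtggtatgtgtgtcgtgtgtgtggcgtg
The SYT2 sequence is rich in TG, and 55.6% of the bases of its peak recurred at the best distance, which is below the 60% asked for.

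The repeat unit of the alpha satellite members was measured rather than assumed. Over all IgG 2 peaks, the distance from 100 to 300 bp at which most bases were equal was 171 bp, with 38.5% equal against a median of 26.9% over these distances. In the 288 alpha satellite members 51.2% of bases were equal at 171 bp and 46.4% at 340 bp. In the other 445 members no distance from 160 to 182 bp passed 28.3%. All of these values follow in part from the rule for the class and are given as a description.

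**Figure D1:**
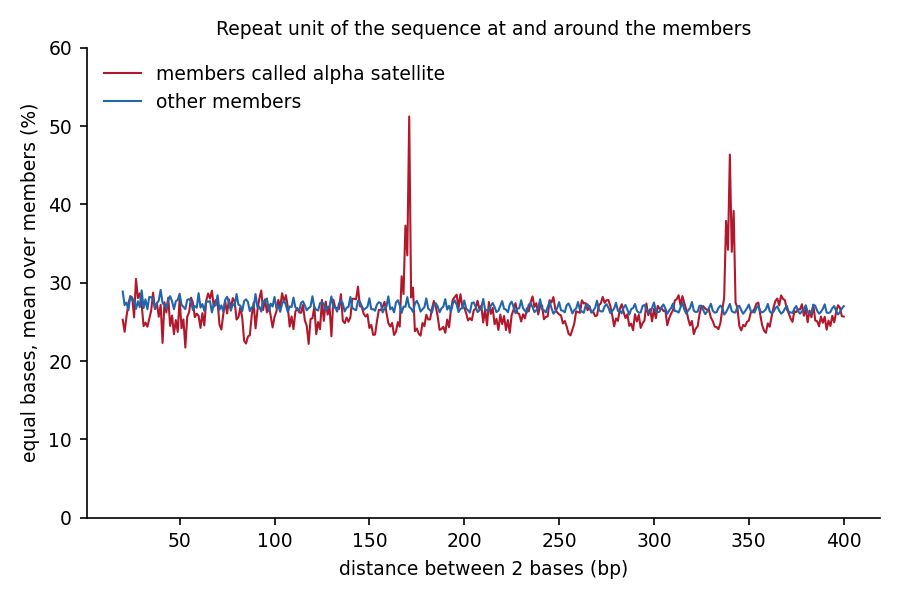
Share of bases equal to the base a given distance away (y axis, %, mean over members) against that distance (x axis, bp), for the 288 members called alpha satellite and the other 445 members. The alpha satellite members rise to 51.2% at 171 bp and to 46.4% at 340 bp, whereas the other members stay below 28.3% from 160 to 182 bp.

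Members were lower and narrower than the other IgG 2 peaks. Their median fold enrichment, the caller's ratio of fragments at the summit to fragments expected with 1 added to both, was 4.65 (95% interval of the median 4.58 to 4.76), with a range of 1.96 to 16.1. Their median width was 358 bp (349 to 365), with a range of 284 to 1267 bp. A whole number of fragments at the summit was recovered from the fold and p-value of all 733 members. The median member had 12 fragments (range 8 to 225) where 1.65 were expected, and its −log10 q was 3.40. For 154 members the expected number was within 1% of 1.235, the commonest value in the list, and no member had a lower one than 1.23.

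The 1013 IgG 2 peaks that shared a base with NRF2 were wider and higher, with a median of 458 bp (441 to 480), a fold of 6.19 (5.98 to 6.40), 27 fragments at the summit and 2.88 expected. The split was made by overlap, which is not independent of width, so these values are a description. Of the members, 231 (31.5%) had a −log10 q of at least 5, against 833 (82.2%) of the shared peaks.

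The classes differed in height. Alpha satellite members had a median fold of 5.37 (5.12 to 5.59) with 13 fragments where 1.47 were expected. The 349 members without a tandem repeat had a fold of 4.33 (4.25 to 4.40) with 11 fragments where 1.67 were expected. Other tandem repeats lay between these, at 4.84 (4.65 to 5.04) with 14 fragments. The 13 GGAAT members stood on a much higher expected number, 8.64, and had a median of 32 fragments at a fold of 4.54 (2.19 to 5.93), so their higher counts did not come with a higher fold.

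Of the 5 members with the highest fold, 4 were alpha satellite. At chr12:35536175-35536522 the fold was 16.1, from 44 fragments where 1.79 were expected. The next was 14.2 at chr8:45572603-45572890, from 53 fragments against 2.81. The third, the GGAAT member at chr17:21863108-21863397, had a fold of 13.1 from 225 fragments against 16.3. It had the highest −log10 q of all members, 163, ranked 41 of 1746, and lay 824 bp from an NRF2 peak. A fold of 13.0 was found at chr17:22977479-22977769, which shared 163 bases with an ACTL6A peak, and of 12.5 at chr4:51161002-51161562, where 27 fragments stood against 1.23. None of these 5 lay in a gene.

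The widest members were of different kinds. The widest, 1267 bp at chr8:85734691-85735957, covered an exon of REXO1L11P, a pseudogene of a multicopy exonuclease family, with a fold of only 2.55 from 59 fragments where 22.5 were expected. It shared 123 bases with ACTL6A and lay 443 bp from an NRF2 peak. A GGAAT repeat of 1033 bp at chr10:38827348-38828380 had a fold of 6.81, and an alpha satellite member of 1011 bp at chr14:17525431-17526441, with 3 CENP-B boxes, had 5.99.

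How often an IgG 2 peak was absent from NRF2 moved with its height. It was absent for 105 of 121 peaks with fewer than 10 fragments at the summit (86.8%), for 400 of 547 with 10 to 14 (73.1%, 69.3% to 76.7%), for 197 of 584 with 15 to 29 (33.7%) and for 31 of 479 with 30 or more (6.47%, 4.60% to 9.04%). For 15 shared peaks no whole number was recovered. Ordered by −log10 q, 1 of the highest 100 peaks and 23 of the highest 500 (4.60%) were members, whereas 399 of the lowest 500 were (79.8%, 76.1% to 83.1%). The members are thus mainly the weak end of the IgG 2 list.

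Sequence class went with absence as well. Members made up 349 of 564 IgG 2 peaks without a tandem repeat (61.9%, 57.8% to 65.8%), 83 of 220 other tandem repeats (37.7%, 31.6% to 44.3%), 288 of 839 alpha satellite peaks (34.3%, 31.2% to 37.6%) and 13 of 123 GGAAT repeats (10.6%, 6.28% to 17.2%), against 42.0% of all IgG 2 peaks. The gap was also read within ranges of the fragment count, in which fold and expected number can still differ. With 10 to 14 fragments, 199 of 229 peaks without a tandem repeat were absent from NRF2 (86.9%, 81.9% to 90.7%), against 158 of 264 in alpha satellite (59.8%, 53.8% to 65.6%). With 30 or more fragments the shares were 10 of 143 (6.99%) and 11 of 178 (6.18%), and their intervals overlapped. Each interval takes the peaks as independent of each other.

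**Figure D2:**
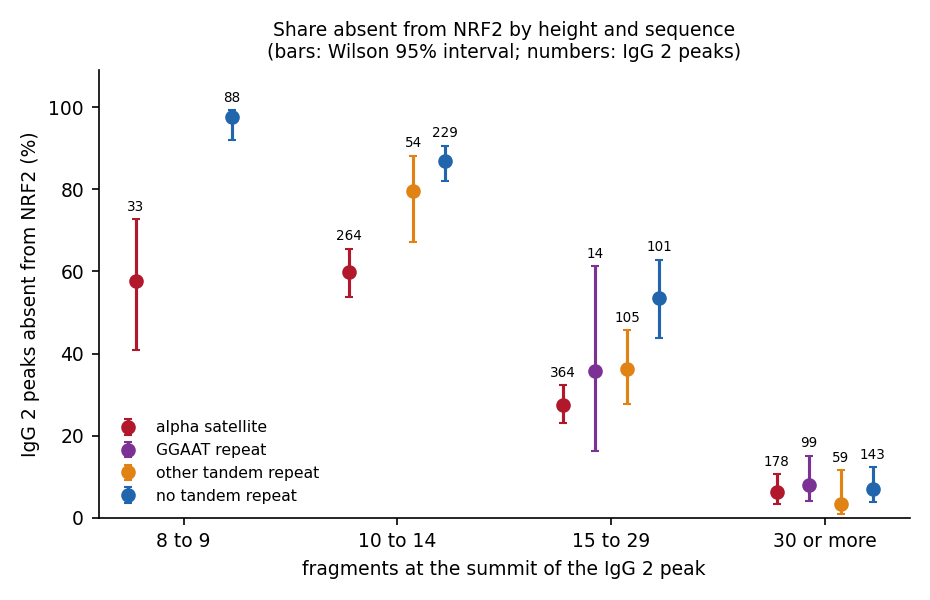
Share of IgG 2 peaks absent from NRF2 (y axis, %) by the number of fragments at the summit (x axis) and by sequence class, with Wilson 95% intervals as bars and the number of IgG 2 peaks above each. In alpha satellite the share is 57.6% below 10 fragments and 59.8% at 10 to 14 before it falls to 6.18% at 30 or more, and at 10 to 14 it is 86.9% without a tandem repeat.

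The rule cuts at a single shared base, and its edge ran as follows. The smallest gap between a member and an NRF2 peak was 3 bp, for an alpha satellite member at chr9:60625459-60626317 with a fold of 3.50. The next was 25 bp, at chr21:8205942-8206499, a stretch with 75.3% GC where 77 fragments stood against 34.9 expected and all 558 bases lay in BRG1 peaks. The third was 46 bp, in an intron of CALD1, the gene of the actin-binding protein caldesmon. Just on the other side, the IgG 2 peak at chr9:125988849-125989139 shared 4 bases with NRF2 and had a fold of 3.05, an alpha satellite peak at chr10:40505679-40506462 shared 9 with a fold of 6.68, and a GGAAT repeat of 716 bp shared 50 with a fold of 7.53. In all, 29 members (3.96%) lay within 1 kb of an NRF2 peak and 149 (20.3%) within 10 kb. The latter held 92 of the 288 alpha satellite members (31.9%, 26.8% to 37.5%) and 57 of the 445 others (12.8%, 10.0% to 16.2%).

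Alpha satellite members lay on all of chromosomes 1 to 22 and X, from 3 on chromosomes 15, 17 and X to 29 on chromosome 8. All 288 lay between genes. A CENP-B box was found in 228 of them (79.2%, 74.1% to 83.5%), in 492 of the 551 alpha satellite peaks shared with NRF2 (89.3%) and in 0 of the 445 other members, which allows a share of up to 0.674%. The box was searched within each peak, on both strands, by its 9 fixed bases among 17. The shared alpha satellite peaks were wider, with a median of 422 bp against 370 bp, and width was not adjusted for. Words of the summit occurred more than 100 times in the genome in 271 of the 288 (94.1%), with a median of 1050 copies, and in 1 member only once. GC content hardly varied, with a median of 39.1% and quartiles of 38.2% and 40.0%.

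The share of alpha satellite peaks absent from NRF2 was not the same on each chromosome. It was 13 of 89 on chromosome 10 (14.6%, 8.74% to 23.4%), 14 of 77 on chromosome 1 (18.2%, 11.2% to 28.2%) and 11 of 55 on chromosome 20 (20.0%, 11.6% to 32.4%). It reached 16 of 24 on chromosome 18 (66.7%, 46.7% to 82.0%), 23 of 41 on chromosome 9 (56.1%, 41.0% to 70.1%) and 6 of 6 on chromosome 14 (61.0% to 100%). The intervals of the first and second groups did not overlap. These are chromosomes picked after their values were seen, and how reads were placed among copies of the repeat was not analysed here, so the place of a peak within alpha satellite is uncertain.

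Outside alpha satellite the members had a median GC content of 52.5% (51.5% to 53.6%), above the 40.9% of the genome outside alpha satellite. Shared peaks outside alpha satellite had 50.3% (48.8% to 52.1%), and all BRG1, ACTL6A and NRF2 peaks 60.9%, 58.8% and 60.6%. Summit words of the members occurred once in the genome in 275 of 445 (61.8%, 57.2% to 66.2%), against 121 of the 462 shared peaks outside alpha satellite (26.2%, 22.4% to 30.4%). Members without a tandem repeat occurred once in 241 of 349 (69.1%), against 53 of 215 shared peaks of that class (24.7%). Outside alpha satellite the members thus lay mostly in unique sequence and the shared peaks in repeated sequence.

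In the 83 other tandem repeats the distance at which most bases were equal ran from 7 to 99 bp, with a median of 47 bp. It was up to 60 bp in 61 of the 83, and it can be a multiple of the repeat unit. Of these 83 members, 41 (49.4%, 38.9% to 59.9%) lay within 5 Mb of a chromosome end, against 32 of 349 without a tandem repeat (9.17%, 6.57% to 12.7%) and 7.24% of the known bases outside alpha satellite. Among other tandem repeats shared with NRF2 it was 81 of 137 (59.1%), and this interval overlapped that of the members. A place near chromosome ends was thus not particular to the members. Of the 83 members, 54 (65.1%) lay in genes, 50 of these in introns.

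With respect to genes, 496 of the 733 members (67.7%) lay between genes, 196 (26.7%) in introns and 41 (5.59%) touched an exon. Leaving out alpha satellite, 237 of 445 lay in genes (53.3%, 48.6% to 57.8%), a smaller share than the 62.0% of bases that genes cover there, and 159 (35.7%, 31.4% to 40.3%) in protein-coding genes against 45.5% of bases. Both shares were above those of the 462 shared peaks there, 41.8% (37.4% to 46.3%) and 19.3% (15.9% to 23.1%). Exons were touched by 41 of the 445 members (9.21%, 6.86% to 12.3%), against 5.46% of bases, although a whole peak touches an exon more often than a single base does. Of the shared peaks, which were wider, 14.3% (11.4% to 17.8%) touched one. The median member lay 362190 bp from the nearest protein-coding start site, and 86566 bp outside alpha satellite.

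Only 16 members (2.18%, 1.35% to 3.52%) lay within 1 kb of a protein-coding start site. The share was 1.66% of all IgG 2 peaks and 1.28% (0.751% to 2.18%) of those shared with NRF2. Outside alpha satellite it was 3.60% (2.23% to 5.76%) of members, 2.81% (1.65% to 4.75%) of shared peaks and 2.51% of bases. A low share was thus common to the IgG 2 list and not particular to the members. The same share was 31.1% of BRG1, 30.3% of ACTL6A and 52.4% of NRF2 peaks. Several of the 16 belonged to multicopy families. SPANXB1, of a family of sperm proteins, had the highest fold, 4.78, and summit words in 5 copies, and PRR20A, of a family of near-identical genes, had 4.25. FAM90A10 and FAM90A22 had 3.98 and 3.78 with 21 copies each, and TAF11L9 and TAF11L6 had 3.05 and 2.88 with 9 and 8 copies. How reads were placed among such copies was not analysed here.

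At other start sites the summit words were found once. Among these were LY9, a receptor of lymphocytes, with a fold of 4.32, PTCRA, the invariant chain of the pre-T-cell receptor, with 4.03, and PAEP, a secreted lipocalin, with 4.04. PREX2, an exchange factor for Rac, had 4.00, and NUPR1, a stress-induced nuclear protein, had 4.05. FBXO41, NHLRC1, JAKMIP3 and ANGPTL2 had 3.92, 3.71, 3.35 and 3.25. These folds rested on 8 to 15 fragments. ADAP1, a GTPase-activating protein for ARF6, had 4.48 in a tandem repeat whose words occurred 11 times, with most bases equal at 7 bp. BRG1 peaks shared bases with 6 of the 16 members and ACTL6A peaks with 4.

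Genes with more than 1 member were few. CPQ, the gene of a plasma carboxypeptidase, held 3, and 12 genes held 2, among them DIP2C, NLGN1 and SMYD3. CPQ lay on chromosome 8, as did CCDC26, DLGAP2, GML, PREX2, SNTB1 and ST18 with 2 each. Of 20007 protein-coding genes 154 (0.770%) held a member. Among gene lists, 1 of 12 common fragile site genes (IMMP2L), 0 of 10 genes often amplified in gastric cancer, 0 of 12 genes of SWI/SNF and the NRF2 pathway, 0 of 416 olfactory receptor genes and 2 of 515 ZNF genes (ZNF704 and ZNF717) held one. These lists covered 0.693%, 0.0291%, 0.0295%, 0.0943% and 0.745% of bases, in that order, against 46.9% for all protein-coding genes. The counts of genes are not corrected for gene length.

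Overlap with BRG1 and ACTL6A was lower in the members, which were also narrower, than in the rest of the list. A base was shared with a BRG1 peak by 69 members (9.41%, 7.51% to 11.7%), against 17.0% of all IgG 2 peaks and 228 of the 1013 shared with NRF2 (22.5%, 20.0% to 25.2%). With ACTL6A it was 76 (10.4%, 8.36% to 12.8%), against 20.8% of all IgG 2 peaks and 288 of 1013 (28.4%, 25.7% to 31.3%). Both antibodies were met by 33 members (4.50%), BRG1 alone by 36, ACTL6A alone by 43 and neither by 621 (84.7%, 81.9% to 87.1%). No member shared a base with IgG 1, whose list of 11 peaks leaves little to overlap, and 0 of 733 allows up to 0.409%. For scale, a window of the median member width touched a BRG1 peak at 1.12% of all positions in the genome and an ACTL6A peak at 0.495%.

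The overlap depended on the sequence class. No alpha satellite member shared a base with BRG1 (0 of 288, which allows up to 1.04%) and 9 did with ACTL6A (3.12%, 1.65% to 5.83%). Of alpha satellite peaks shared with NRF2, 9 of 551 (1.63%) met BRG1 and 54 (9.80%) ACTL6A. Other tandem repeats overlapped most, with 30 of 83 members on BRG1 (36.1%, 26.6% to 46.9%) and 31 on ACTL6A (37.3%, 27.7% to 48.1%). Members without a tandem repeat had 38 of 349 (10.9%, 8.04% to 14.6%) and 36 of 349 (10.3%, 7.54% to 14.0%).

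The shared peaks of the same classes overlapped more often than the members. Without a tandem repeat, 124 of 215 (57.7%, 51.0% to 64.1%) met BRG1 and 121 (56.3%, 49.6% to 62.7%) ACTL6A, and among other tandem repeats 78 and 77 of 137 did (56.9% and 56.2%). Shared peaks were higher and also wider. Their median width was 550 bp against 350 bp in members without a tandem repeat, and 463 against 367 bp among other tandem repeats. A wider peak shares a base more easily, and width was not adjusted for. Outside alpha satellite, the members met BRG1 for 6 of 86 below 10 fragments (6.98%, 3.24% to 14.4%), 23 of 97 at 15 to 29 (23.7%, 16.4% to 33.1%) and 4 of 20 at 30 or more (20.0%, 8.07% to 41.6%). At 15 to 29 fragments 58 of 123 shared peaks met BRG1 (47.2%, 38.6% to 55.9%), and this interval lay above that of the members. ACTL6A was met there by 22 of 97 members (22.7%) and 46 of 123 shared peaks (37.4%), and these ACTL6A intervals overlapped. At 30 or more fragments 135 of 281 shared peaks met BRG1 (48.0%, 42.3% to 53.9%), and ACTL6A was met by 5 of 20 members (25.0%, 11.2% to 46.9%) and 161 of 281 shared peaks (57.3%, 51.5% to 62.9%). At 10 to 14 fragments the BRG1 intervals of members (14.9%, 10.9% to 19.9%) and shared peaks (29.3%, 17.6% to 44.5%) overlapped. The ACTL6A intervals there (14.5%, 10.6% to 19.4%, and 31.7%, 19.6% to 47.0%) did not, by a narrow margin.

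The members that met both antibodies were led by tandem repeats. The highest was the tandem repeat at chr4:188904844-188905311, with a fold of 9.22 and 444 bases in common with BRG1 and 388 with ACTL6A. RAB40B, a small GTPase gene, held one in an intron at chr17:82671523-82672362, with a fold of 7.41 and 817 bases in common with ACTL6A. FAM118B followed with 6.93 in a tandem repeat, and SYT2, a synaptic calcium sensor, with 6.47, where all 287 bases of the peak lay in both lists. Introns of DYM, TLCD5, LINC02714 and SMYD3 and 2 stretches between genes, at chr3:876350-876673 and chr9:63787757-63788062, completed the 10 highest, with folds of 5.51 to 6.30. Of the 10, 7 were other tandem repeats.

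BRG1 peaks under the members ranked below the middle of their list and ACTL6A peaks above it, and both ranked below those under the shared peaks. The 71 BRG1 peaks had a median rank by q-value of 29061 of 48793, against 24148 for the whole list, the best was 3791 and 1.41% were in the top 10%. The 78 ACTL6A peaks had a median rank of 9480 of 23917, against 11906 for the whole list, the best was 287 and 7.69% were in the top 10%. Under the peaks shared with NRF2, the median ranks were 16978 for 267 BRG1 peaks and 3798 for 337 ACTL6A peaks. Where a member overlapped, the median number of bases in common was 189 with BRG1 and 164.5 with ACTL6A. Base composition went with overlap too. Among members without a tandem repeat, 2 of 50 below 45% GC met BRG1 and 0 of 50 ACTL6A, whereas at 55% GC or more it was 17 (13.6%) and 21 (16.8%) of 125.

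Members outside alpha satellite were densest on chromosome 8, a pattern noticed in the data and examined afterwards. It held 79 of the 445, or 0.555 per Mb of known sequence, 4.44 times the median of 0.125 over the other chromosomes from 1 to 22 and X, which ranged from 0.0522 to 0.354. The long arm held 69 (0.697 per Mb) and the short arm 10, over 99.0 and 43.6 Mb. Next came chromosomes 22 (0.354), 9 (0.269) and 7 (0.259). The shared peaks on chromosome 8 had 0.330 per Mb, 3.04 times the median of the others and in place 4 of 23, whereas BRG1, ACTL6A and NRF2 peaks stood at 0.765, 0.794 and 1.43 times theirs.

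Other measures moved with this. The 79 members on chromosome 8 had a median of 2.15 fragments expected against 1.67 for the 366 elsewhere, 12 fragments at the summit against 11, and a fold of 4.20 against 4.44. Summit words occurred once for 82.3% of them against 57.4% elsewhere, and 57.0% against 52.5% lay in genes. With words found once only, 65 of 275 members were on chromosome 8 (7.11 times the median of the others), and without tandem repeats 71 of 349 (5.05 times). With at least 15 fragments 19 of 117 remained (3.87 times), and with a −log10 q of at least 5 it was 10 of 83 (2.91 times), second in order in both. The part of the higher expected number in this density was not tested, and the number of copies of chromosome 8 in this line was not analysed here, so a density per Mb of the reference is not a density per copy.

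**Figure D3:**
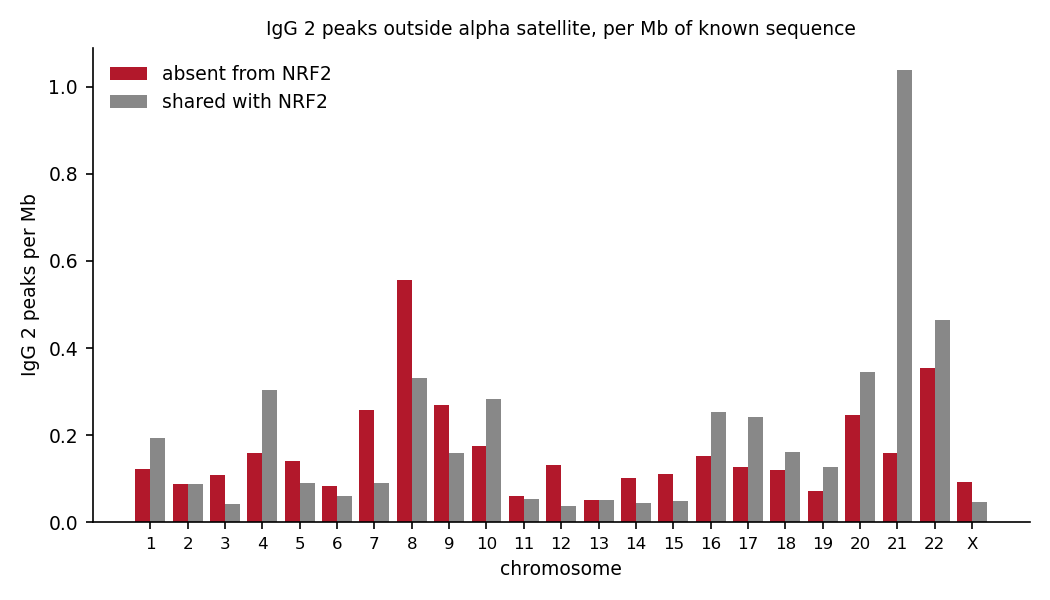
IgG 2 peaks outside alpha satellite per Mb of known sequence (y axis) on chromosomes 1 to 22 and X (x axis), for members (absent from NRF2) and for peaks shared with NRF2. The members reach 0.555 per Mb on chromosome 8 and 0.0522 to 0.354 per Mb elsewhere.

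Along the chromosomes the members were scattered. Joined at gaps of up to 10 kb they formed 713 runs, 20 of them of 2 members and none larger. The run with the highest fold lay in alpha satellite at chr8:45567282-45572890, and 4 others of the top 5, all in alpha satellite, lay at chr8:45253117-45262683, chr8:45547553-45553995, chr19:24584923-24595410 and chr12:34875134-34885083. Joined at 100 kb, 573 runs were left, the largest of 12 members at chr9:43844630-44230572 and the next of 9 at chr8:44062660-44312482, all of them alpha satellite.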

How the data were processed

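CUT&Tag peak lists of SNU638 cells were used, 1 library each for BRG1, ACTL6A and NRF2 and 2 for IgG, from about 100000 cells per library by the study's methods. The authors filtered reads, mapped them with BWA and called peaks with MACS2 on uniquely mapped reads at a q-value below 0.05. The submitters' processing notes also name fastp 0.23.0 and the build hg38. The control given to the caller is not given in the sources used here. The deposited lists hold a score, a ratio (fold enrichment at the summit) and the −log10 p and −log10 q of each peak, and no read depth, which is not used here. All 5 lists matched the lengths of hg38, with 0 peaks past a chromosome's end.

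A member shared 0 bases with any NRF2 peak. Fragments at the summit were recovered as the integer for which the fold and a Poisson model give back the deposited −log10 p to within 0.001. Genes and start sites were those of GENCODE release 44. Copies of a summit were the median number of times that 32-base words, every 10 bases within 100 bases of the summit, occurred in hg38 on both strands. Shares have Wilson 95% intervals and medians order-statistic intervals, and a count of 0 is given with the limit of 3 counts. These cover counting error only. No p-value was computed, since BRG1, ACTL6A and NRF2 had 1 library each and the members come from 1 of the 2 IgG libraries.

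The members and lists were chosen with earlier results of these data known, and the sequence classes, the work on chromosome 8 and the summit words were added after the data had been seen. Regions named were the 5 of highest fold, the 3 widest, the 5 leading runs, the 10 highest that met both BRG1 and ACTL6A, the 15 highest at a start site and those with the smallest gap to or overlap with NRF2. The 16th start site (TAF11L6) and the peaks shown only as sequences were named after their values were seen. Alternatives were other overlaps, −log10 q minimums, distances and members left out. Routines were tested on simulated data. Work was done in Python 3.11.15 with pysam 0.24.0, matplotlib 3.10.9, pandas 2.3.3, SciPy 1.17.1 and NumPy 2.4.6.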

Additional observations from a re-analysis of the deposited data

How the results depend on the processing

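Of 51 alternatives, 24 kept a value within its interval, or a count within 1.5 times the one reported, and 27 moved it further. Whether an alternative reversed a result was not scored. A −log10 q of at least 5 left 231 members in 221 runs, with a median width of 366 bp, a fold of 6.02 and a GC content of 39.9%, of which 0.433% lay at a start site, 19.5% in genes and 64.1% in alpha satellite, with 9.52% on BRG1, 15.6% on ACTL6A and a density on chromosome 8 of 2.91 times the median. Overlap with BRG1 was 4.50% at 50% of both peaks, 12.8% within 1 kb, 3.14% with a −log10 q minimum of 5 for BRG1 and 0.136% with the highest 5000, and with ACTL6A 4.77%, 14.3%, 3.41% and 2.05%. The start-site share was 1.09% within 250 bp and 4.37% within 3 kb, and 21.7% lay in protein-coding genes.

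Added after seeing the data, leaving out alpha satellite gave 3.60% at a start site, 53.3% in genes, 15.5% on BRG1 and 15.1% on ACTL6A. At 45% equal bases 33.0% of members were alpha satellite, and with summit words of 1 copy the density on chromosome 8 was 7.11 times the median. The number of members was 840 at 50% of both peaks, 704 without those within 1 kb of NRF2 and 897 with that minimum of 5 for NRF2. Leaving out IgG 1 left 733, a range of 733 to 733, which says nothing of stability, since IgG 1 is no part of the rule and met 0 members.

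No paired analysis was possible because BRG1, ACTL6A and NRF2 had 1 library each, and there is no result from a test. Depth limits what absence means: most members had 8 to 14 fragments at the summit, and an NRF2 peak list cannot show how many NRF2 fragments lay there below its threshold. Control reads and mapping of repeats were not analysed here.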
